A study of Mus musculus with 12 samples.

Results

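The genes described here are 42 in number: the Hox genes of the Hoxa, Hoxb, Hoxc and Hoxd clusters, the antisense transcript Hoxa11os, and the 3 Cdx genes Cdx1, Cdx2 and Cdx4, out of 21799 genes that could be linked to the deposited loci. They were measured in poly(A) RNA of mouse embryonic stem cells of strain C57BL/6J, labelled WT or Notch1-/-. Each genotype was sampled undifferentiated (day 0) and as embryoid bodies on day 6, with 3 libraries in each of the 4 groups. Embryoid bodies are aggregates in which stem cells start to form embryonic tissues; here they came from hanging drops of 1000 cells set up for cardiac differentiation. Day 0 cells were kept with LIF at 1000 U/ml on fibroblast feeders or on gelatin, and the labels do not say which support each library had. The labels name no other allele or agent, and they do not say which part of Notch1 is deleted or how many clones the lines represent. The design speaks of biological replicates but not of separate cultures, so the p-values reflect the spread among these 12 libraries alone, which may be technical.

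The count tables held 100637179 to 134662426 counts per library. Notch1, the receptor that the genotype removes, was read at 61.6, 24.7 and 34.0 CPM (counts scaled to library size with TMM factors) in the WT day 0 libraries and at 38.0, 30.8 and 31.1 CPM in the WT day 6 libraries. In Notch1-/- it was read at 3.80, 3.87 and 4.59 CPM at day 0 and at 6.80, 4.90 and 4.95 CPM at day 6. Every Notch1-/- library was below every WT library, with a log2 difference of -3.29 at day 0 and -2.58 at day 6.

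The deposited models gave the 42 genes as 22 loci, because neighbouring Hox genes had been merged wherever a transcript joined them. Of these loci, 13 held 1 of the genes and 9 held several, 29 genes in all, whose values cannot be separated. A locus is therefore named by all its members, as in Hoxa9/a10/a11/a13. For 15 loci (23 genes) the deposited counts were used. For the 7 loci (19 genes) with a shared exon length of 50% or more, that is, exon bases also claimed by another locus, the deposited FPKM (fragments per kilobase of exon, scaled to library size) was used, because a read in a shared stretch has no single locus to be counted for: Hoxc4/c5/c6 had 0 counts in all 12 libraries at FPKM values of up to 5.08. The loci nearest this threshold were Hoxc8/c9/c10/c11 with 48.7% shared (counts used) and Hoxd8 with 51.6% (FPKM used).

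Hox genes encode homeobox transcription factors that give cells their position along the head-to-tail axis. In each cluster the genes are numbered by paralog group: low numbers are switched on first and act towards the head, high numbers follow and act towards the tail. Cdx1, Cdx2 and Cdx4 encode related homeobox factors of the posterior embryo that bind and activate Hox genes, and Cdx2 also acts in trophectoderm and gut. In stem cells the clusters are held silent by Polycomb proteins, and retinoic acid, Wnt and Fgf signals open them during differentiation.

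Promoter sequences are shown for members of loci that differed in opposite directions, so that the windows of Hoxb1 (higher in Notch1-/- at day 6), of Hoxa7 and Cdx2 (lower) and of Hoxb8 and Hoxd4 (each part of a merged locus that was lower, with no value of their own) can be read side by side. They are the 250 bases before the RefSeq start on GRCm38.p6, in the direction of the gene. The windows are chr11:96365508-96365757 (plus strand) for Hoxb1, chr6:52218574-52218823 (minus) for Hoxa7, chr11:96281655-96281904 (plus) for Hoxb8, chr2:74721728-74721977 (plus) for Hoxd4 and chr5:147307250-147307499 (minus) for Cdx2. Capitals mark every match, on either strand, to TTTATG or TTTATT, sequences that CDX proteins are known to bind, or to TGATNNAT, the sequence known for HOX factors paired with PBX; matches may overlap.
Hoxb1: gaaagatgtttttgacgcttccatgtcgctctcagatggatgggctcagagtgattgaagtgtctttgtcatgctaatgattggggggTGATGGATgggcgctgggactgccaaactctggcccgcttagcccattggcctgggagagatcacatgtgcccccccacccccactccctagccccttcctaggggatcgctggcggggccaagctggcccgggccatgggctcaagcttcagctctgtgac
Hoxa7: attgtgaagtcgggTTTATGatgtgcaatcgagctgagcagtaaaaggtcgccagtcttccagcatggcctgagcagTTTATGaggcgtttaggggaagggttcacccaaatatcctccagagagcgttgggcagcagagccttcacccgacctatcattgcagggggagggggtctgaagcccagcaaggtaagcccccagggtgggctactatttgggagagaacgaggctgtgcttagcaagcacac
Hoxb8: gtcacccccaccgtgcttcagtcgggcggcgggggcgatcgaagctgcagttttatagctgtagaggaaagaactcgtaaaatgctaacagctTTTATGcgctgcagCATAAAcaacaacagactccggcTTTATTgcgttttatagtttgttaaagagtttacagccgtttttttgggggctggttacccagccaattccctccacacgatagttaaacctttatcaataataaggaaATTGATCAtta
Hoxd4: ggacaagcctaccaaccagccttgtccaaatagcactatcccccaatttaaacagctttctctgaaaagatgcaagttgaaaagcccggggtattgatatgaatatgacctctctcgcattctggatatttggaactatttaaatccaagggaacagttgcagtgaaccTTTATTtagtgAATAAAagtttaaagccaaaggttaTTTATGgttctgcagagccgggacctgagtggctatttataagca
Cdx2: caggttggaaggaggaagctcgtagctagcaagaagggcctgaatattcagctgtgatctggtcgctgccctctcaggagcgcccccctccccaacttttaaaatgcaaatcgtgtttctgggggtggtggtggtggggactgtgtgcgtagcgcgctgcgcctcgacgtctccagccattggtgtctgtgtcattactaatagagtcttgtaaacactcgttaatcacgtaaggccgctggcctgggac

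The Hoxb1 window held 1 match to TGATNNAT and none to the CDX-type sequences. Hoxa7 held 2 matches to TTTATG. Hoxb8 held 2 to TTTATG, 1 to TTTATT and 1 to TGATNNAT, and Hoxd4 held 1 to TTTATG and 2 to TTTATT. The Cdx2 window held no match to any of the 3. Promoter windows were present in the table for 25 of the 42 genes (27 windows). Of these windows, 5 held TTTATG (18.5%, against 10.8% of all 32851 windows), 5 held TTTATT (18.5% against 18.1%) and 4 held TGATNNAT (14.8% against 7.68%). A CDX-type match of either kind was found in 7 of the member windows (25.9%) and in 25.5% of all windows. The printed Hoxa7, Hoxb8 and Hoxd4 windows are among these 7 and are not typical of the lower loci. Windows of other genes in lower loci, such as Hoxa5, Hoxa9, Hoxd8 and Hoxd13, held no such match, like that of Hoxb1. The median member window held 13 CG dinucleotides, against 6 over all windows. These are matches of letters, not measured binding.

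**Figure D1:**
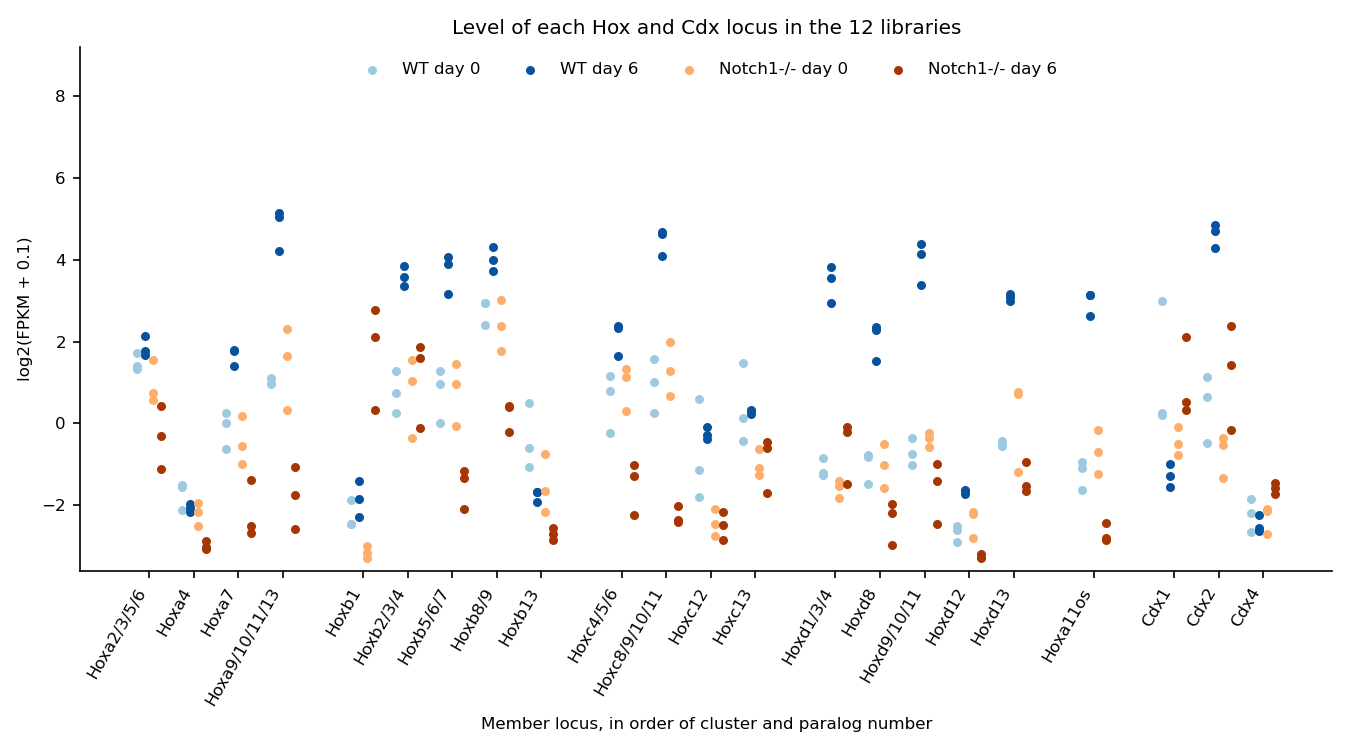
Level of each of the 22 loci as log2(FPKM + 0.1) in each of the 12 libraries, 1 point per library, coloured by genotype and day and ordered by cluster and paralog number. The WT day 6 points are the highest group at most loci, whereas at Hoxb1 the Notch1-/- day 6 points are the highest, with FPKM of 4.25, 6.72 and 1.16.

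At day 6, loci of all 4 Hox clusters were lower in Notch1-/- than in WT embryoid bodies, and the exceptions were Hoxb1, Cdx1 and Cdx4, which were higher. Of the 15 loci read by counts, 11 were lower and 3 higher at an adjusted p under 0.05 (edgeR), against 14.4% lower and 13.7% higher of all 23991 loci tested. All 7 loci read by FPKM were lower (limma), against 15.8% of 20055 loci. With a pseudocount of 1 in place of 0.1 the calls of the FPKM loci stood, at differences of over 1.5 times smaller size for 5 of them (Hoxa2/a3/a5/a6 -1.39, Hoxb5/b6/b7 -3.49, Hoxc4/c5/c6 -2.05, Hoxd8 -2.20 and Hoxa11os -3.05). The 18 lower loci held 38 of the 42 genes; Hoxc13 was the locus not called. The median log2 difference was -3.12 over the count loci and -4.43 over the FPKM loci, against 0.012 and 0.0044 over all loci tested. Values of count loci and of FPKM loci come from different tests and scales, so sizes are ranked only within each. RNA was measured in bulk, so fewer cells of a type and less RNA per cell cannot be told apart.

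All 5 loci of the Hoxa cluster (mm9 chromosome 6), Hoxa11os included, were lower. Hoxa2/a3/a5/a6 (mm9 chr6:52105366-52163385), anterior genes of hindbrain and neck levels, had FPKM of 4.27, 3.11 and 3.30 in WT day 6 libraries and 0.701, 1.24 and 0.361 in Notch1-/-, a log2 difference of -2.20 (SE 0.37, adjusted p = 0.00144). Hoxa4 (chr6:52139686-52141702) stayed below 1 CPM in all 12 libraries, at 0.308 to 0.355 CPM in WT and 0.0450 to 0.0858 CPM in Notch1-/- at day 6, and was lower by the test (adjusted p = 0.00121). Hoxa7 (chr6:52164497-52171892), a trunk-level gene, was read at 13.1, 12.97 and 9.33 CPM in WT and at 0.333, 1.14 and 0.238 CPM in Notch1-/-. Its log2 difference was -4.37 (SE 0.57, adjusted p = 0.000166), and the groups were far apart although the Notch1-/- libraries themselves spread over several-fold.

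Hoxa9/a10/a11/a13 (chr6:52173096-52210874), genes of the lumbar to tail levels and of the limb, had FPKM of 33.0, 35.3 and 18.5 in WT and 0.199, 0.374 and 0.0680 in Notch1-/-. The log2 difference was -6.60 (SE 0.49, adjusted p = 5.42e-06), the largest among the 7 FPKM loci. Hoxa11os (chr6:52173096-52210361) is transcribed from the strand opposite Hoxa11; it had FPKM of 8.70, 8.70 and 6.06 in WT and 0.0441, 0.0856 and 0.0394 in Notch1-/- (log2 difference -5.65, SE 0.30, adjusted p = 5.70e-07). Its span covers nearly all of Hoxa9/a10/a11/a13, and 74.0% and 88.2% of the exon lengths of these 2 loci are shared with another locus. Since the strand setting of the counting is not given, the reads of Hoxa11os and of Hoxa9/a10/a11/a13 cannot be told apart. The 2 are counted as separate loci throughout but may rest on the same reads.

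In the Hoxb cluster (chromosome 11) the most anterior gene went against the rest. Hoxb1 (chr11:96227043-96229671), a gene of the hindbrain and of the earliest posterior embryo, known for activating its own promoter together with Pbx, was read at 0.902, 0.339 and 0.564 CPM in WT and at 14.4, 22.9 and 3.86 CPM in Notch1-/- day 6 libraries. It was higher in all 3, by 4.51 on the log2 scale (SE 0.66, adjusted p = 0.000379), with the third Notch1-/- library well below the other two. The neighbouring Hoxb2/b3/b4 (chr11:96168434-96216868) had FPKM of 14.4, 11.8 and 10.1 in WT and 2.93, 3.58 and 0.830 in Notch1-/-, and was lower by 2.47 (log2 difference -2.47, SE 0.56, adjusted p = 0.00794). Hoxb5/b6/b7 (chr11:96146845-96167844) had FPKM of 16.8, 14.9 and 8.93 against 0.344, 0.299 and 0.136 (log2 difference -5.25, SE 0.45, adjusted p = 1.46e-05).

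Hoxb8/b9 (chr11:96109280-96146639), of the thoracic and lumbar levels, was read at 106, 85.0 and 73.6 CPM in WT and at 7.23, 10.01 and 4.24 CPM in Notch1-/- (log2 difference -3.62, SE 0.31, adjusted p = 8.54e-06). Hoxb13 (chr11:96055675-96057913), which lies apart at the posterior end, was low in both genotypes, at 0.431, 0.347 and 0.410 CPM in WT and 0.144, 0.133 and 0.0745 CPM in Notch1-/-. Its call (log2 difference -1.76, SE 0.54, adjusted p = 0.0287) was lost when any 1 of the 6 day 6 libraries was left out (adjusted p of 0.0537 to 0.110) and in FPKM.

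In the Hoxc cluster (chromosome 15), 3 of the 4 loci were lower. Hoxc4/c5/c6 (chr15:102828641-102867355) had FPKM of 4.90, 5.08 and 3.01 in WT and 0.308, 0.393 and 0.112 in Notch1-/- (log2 difference -3.63, SE 0.44, adjusted p = 0.000164). Hoxc8/c9/c10/c11 (chr15:102773301-102824817) was read at 30.2, 31.3 and 21.0 CPM in WT and at 0.135, 0.133 and 0.0596 CPM in Notch1-/-, a log2 difference of -7.98 (SE 0.44, adjusted p = 3.49e-07) and the largest of the 15 count loci. Hoxc12 (chr15:102762302-102772039) was read at 4.12, 4.43 and 3.86 CPM in WT and at 0.882, 1.15 and 0.439 CPM in Notch1-/- (log2 difference -2.33, SE 0.64, adjusted p = 0.0173). Without the third Notch1-/- day 6 library the adjusted p for Hoxc12 was 0.0706. Hoxc13 (chr15:102751518-102762112), which also acts in hair and skin, was read at 0.592 to 0.729 CPM in WT and 0.231 to 0.585 CPM in Notch1-/-; the groups did not overlap, and the test did not call it (log2 difference -0.75, adjusted p = 0.313).

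All 5 loci of the Hoxd cluster (chromosome 2) were lower. Hoxd1/d3/d4 (chr2:74548304-74603871) was read at 115, 92.7 and 60.9 CPM in WT and at 5.68, 6.31 and 2.01 CPM in Notch1-/- (log2 difference -4.26, SE 0.40, adjusted p = 1.53e-05). Hoxd8 (chr2:74541065-74546142) had FPKM of 4.98, 4.74 and 2.79 against 0.121, 0.154 and 0.0268 (log2 difference -4.43, SE 0.37, adjusted p = 1.25e-05). Hoxd9/d10/d11 (chr2:74517462-74538311), of the lumbosacral levels and the limb, was read at 109, 98.7 and 69.4 CPM against 1.15, 1.62 and 0.305 CPM (log2 difference -6.50, SE 0.53, adjusted p = 6.05e-06). The third library was the lowest of its group in both genotypes at these 3 loci.

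Both loci at the posterior end of the cluster were lower as well. Hoxd12 (chr2:74513087-74515762) was read at 0.778, 0.880 and 0.881 CPM in WT and at 0.0180, 0.0390 and 0.00745 CPM in Notch1-/- (log2 difference -5.23, SE 0.61, adjusted p = 7.99e-05); in FPKM the difference was -1.57. Hoxd13 (chr2:74506367-74509655), the last gene of the cluster and a gene of digits and the genital tubercle, was read at 31.3, 34.1 and 28.7 CPM in WT and at 0.846, 1.67 and 0.953 CPM in Notch1-/- (log2 difference -4.76, SE 0.52, adjusted p = 5.22e-05).

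**Figure D2:**
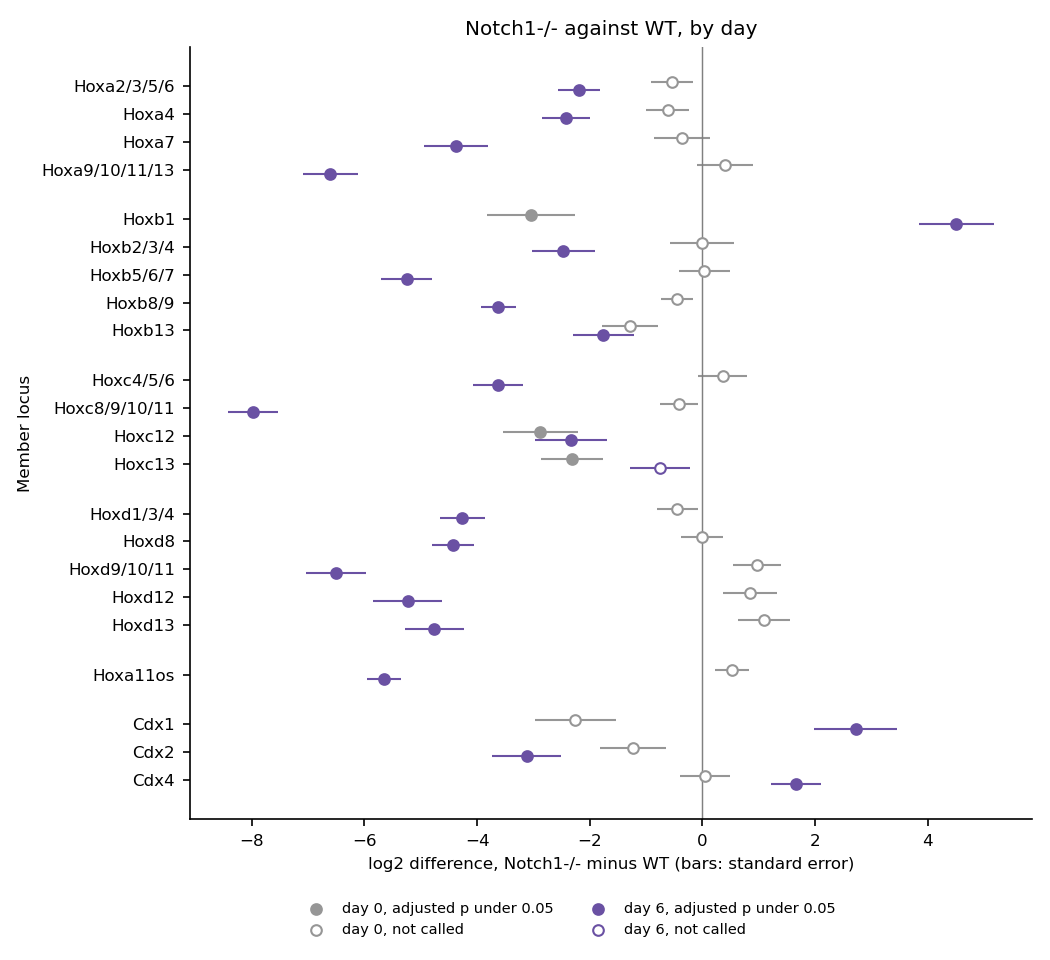
Log2 difference of Notch1-/- against WT at each of the 22 loci at day 0 (grey) and at day 6 (purple), with standard errors; filled points passed an adjusted p of 0.05. At day 6 the points lie between -7.98 (Hoxc8/c9/c10/c11) and 4.51 (Hoxb1), and at day 0 only Hoxb1, Hoxc12 and Hoxc13 were called.

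The 3 Cdx genes did not move together at day 6. Cdx2 (chr5:148101779-148119231) was read at 90.6, 102 and 65.6 CPM in WT and at 9.08, 17.8 and 2.75 CPM in Notch1-/-; the groups did not overlap, and the log2 difference was -3.12 (SE 0.61, adjusted p = 0.00251). Cdx1 was read at 0.546, 0.889 and 0.701 CPM in WT and at 2.76, 8.91 and 2.39 CPM in Notch1-/-, higher by 2.72 (SE 0.74, adjusted p = 0.0158). The second Notch1-/- library was the highest for Cdx1, Cdx2 and Hoxb1. The Cdx1 call was lost without that library (log2 difference 1.85, adjusted p = 0.0832), without the first WT day 6 library (0.0666) and without the third (0.0524). Cdx4 (chrX:100516561-100526553) was low throughout, at 0.431, 0.254 and 0.214 CPM in WT and 0.945, 1.09 and 0.812 CPM in Notch1-/-, higher by 1.66 (SE 0.45, adjusted p = 0.0151). The Cdx4 call was lost without the second or the third WT day 6 library (adjusted p = 0.0671 and 0.0672) or the second Notch1-/- one (0.0517).

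On the length-corrected scale, the highest loci in WT day 6 embryoid bodies were Hoxa9/a10/a11/a13 at 28.9 ± 9.10 FPKM (SD, n = 3), Cdx2 at 24.7 ± 4.74 and Hoxc8/c9/c10/c11 at 22.5 ± 4.71. These 3 did not differ beyond their spread, and a merged locus pools several genes. In Notch1-/- day 6 embryoid bodies the order was Hoxb1 at 4.04 ± 2.78 FPKM, Cdx2 at 2.82 ± 2.14, Hoxb2/b3/b4 at 2.45 ± 1.44 and Cdx1 at 2.23 ± 1.70, again within their spread. The highest WT loci of the Hoxa and Hoxc clusters stood at 0.214 ± 0.154 and 0.110 ± 0.0309 FPKM there.

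**Figure D3:**
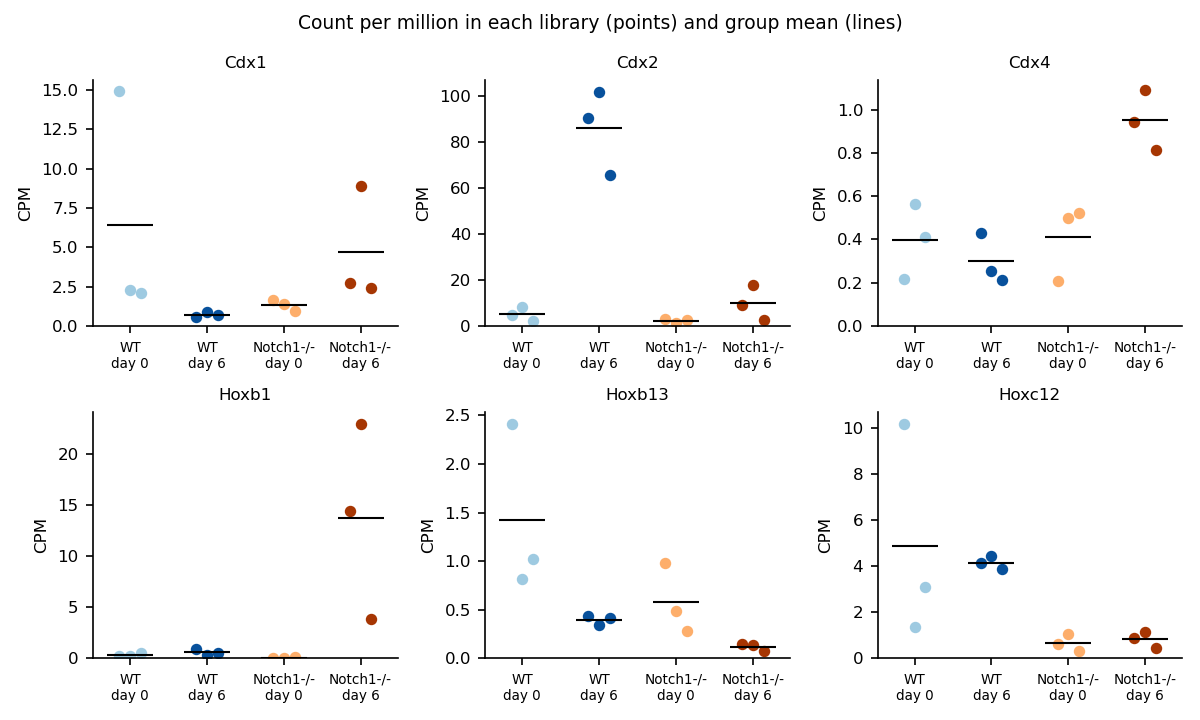
CPM (linear axes from 0) of Cdx1, Cdx2, Cdx4, Hoxb1, Hoxb13 and Hoxc12 in each library (points) with the group means (lines). In Cdx1 and Hoxc12 the first WT day 0 library stands apart, at 14.9 and 10.2 CPM, and Cdx2 reaches 65.6 to 102 CPM in the WT day 6 group alone.

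From day 0 to day 6, part of the loci in each Hox cluster rose in WT and fell in Notch1-/-, and others did not. In WT, 14 of the 22 loci (31 genes) rose and 2 (Hoxb13 and Cdx1) fell. By readout, 8 of 15 count loci rose, against 18.4% of all loci, and 2 fell, against 24.7%. Of the 7 FPKM loci 6 rose, against 20.9% of all loci, where 23.8% fell. In Notch1-/-, 14 loci (30 genes) fell and 4 (Hoxb1, Hoxd1/d3/d4, Cdx2 and Cdx4) rose. There 8 count loci fell, against 18.7% of all loci, and 4 rose, against 17.2%. Of the FPKM loci 6 fell, against 16.2% of all loci, where 18.7% rose. The median log2 change was 0.81 (counts) and 2.97 (FPKM) in WT and -2.05 and -1.99 in Notch1-/-, where all loci had medians of -0.12, -0.051, -0.019 and 0.031. The WT and Notch1-/- changes share no libraries with each other.

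Among the count loci, the largest rises in WT were those of Hoxd1/d3/d4, from 3.13, 2.29 and 2.48 CPM at day 0 (log2 change 5.08, SE 0.42, adjusted p = 4.01e-06), and Hoxd9/d10/d11, from 3.80, 2.97 and 3.27 CPM (4.79, SE 0.49, adjusted p = 1.68e-05). Hoxc8/c9/c10/c11 followed, from 1.29, 0.665 and 1.31 CPM (4.66, SE 0.37, adjusted p = 3.31e-06). Cdx2 rose by 4.08 (SE 0.64, adjusted p = 0.000334) from 4.83, 8.20 and 2.27 CPM.

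The other count loci that rose in WT were Hoxd13 (log2 change 3.81), Hoxd12 (1.88), Hoxa7 (1.76) and Hoxb8/b9 (0.81). Among the FPKM loci, Hoxa11os rose by 4.19 from FPKM of 0.368, 0.223 and 0.416, followed by Hoxa9/a10/a11/a13 (3.78 in FPKM, 4.98 in counts), Hoxd8 (3.07), Hoxb5/b6/b7 (2.97), Hoxb2/b3/b4 (2.84) and Hoxc4/c5/c6 (1.54). Hoxb8/b9 started highest, at 52.6, 47.5 and 50.97 CPM. Its call (adjusted p = 0.0346) was lost without any 1 of the 3 WT day 0 libraries or the first or the second WT day 6 library (adjusted p of 0.0595 to 0.125) and under upper quartile scaling (0.0826). With a pseudocount of 1 the rises of Hoxd8 and Hoxa11os were 1.86 and 2.71. Hoxc4/c5/c6 (adjusted p = 0.0152) lost its call without the second WT day 0 library (0.0513) or the first or the second WT day 6 library (0.0544 and 0.0573).

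The 2 falls in WT rested in part on the first day 0 library. Cdx1 was read there at 14.9 CPM, against 2.31 and 2.13 CPM in the other 2, and fell by 3.18 (log2, adjusted p = 0.00456); without that library it fell by 1.64 (adjusted p = 0.0223). Hoxb13 was read at 2.41 CPM there, against 0.818 and 1.02 CPM, and fell by 1.84 (adjusted p = 0.0106); without that library the change was -1.21 and not called (adjusted p = 0.0536). Hoxa2/a3/a5/a6, Hoxa4, Hoxb1, Hoxc12, Hoxc13 and Cdx4 were not called in WT. Hoxa2/a3/a5/a6 was called higher by counts (log2 change 1.00) but not by FPKM (0.37), and Hoxb5/b6/b7 was called by FPKM but not by counts (1.09). Hoxc13 was called lower without the second WT day 0 library (log2 change -1.30, adjusted p = 0.0474).

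In Notch1-/- the change of Hoxb1 was the largest of the count loci: it was read at 0.0397, 0.00879 and 0.0802 CPM at day 0 and rose by 8.32 on the log2 scale (SE 0.84, adjusted p = 2.57e-05). Cdx2 rose by 2.19 (adjusted p = 0.0128) from 2.90, 1.14 and 2.46 CPM with overlapping groups, and the call was lost without the second day 0 library (1.87, adjusted p = 0.0526) or the second day 6 library (1.44, adjusted p = 0.0703). Hoxd1/d3/d4 rose by 1.27 (adjusted p = 0.0162) from 1.70, 1.78 and 2.35 CPM, also with overlapping groups. Its call was lost without the second day 0 library (0.0555), the first or the second day 6 library (0.0587 and 0.0724), when only the 2 groups were fitted (0.0559), and in FPKM. The rise of Cdx4 (1.21, adjusted p = 0.0480) lay at the threshold and was lost under 14 of 18 alternatives.

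Among the count loci, the falls in Notch1-/- were largest for Hoxd12 (log2 change -4.20, adjusted p = 0.000278), Hoxc8/c9/c10/c11 (-2.90, adjusted p = 0.000157) and Hoxd9/d10/d11 (-2.67, adjusted p = 0.000784). This order depended on the readout, since in FPKM Hoxd12 changed by -0.85, Hoxc8/c9/c10/c11 by -3.58 and Hoxd9/d10/d11 by -1.23. Among the FPKM loci the fall was largest for Hoxa9/a10/a11/a13 (-3.22, adjusted p = 0.000688). Hoxd9/d10/d11 had been read at 4.13, 7.32 and 8.11 CPM at day 0, above every WT day 0 library. Hoxa4, Hoxa7, Hoxb5/b6/b7, Hoxb8/b9, Hoxb13, Hoxc4/c5/c6, Hoxd13 and Hoxa11os fell by 1.99 to 2.44. With a pseudocount of 1 the changes of Hoxa9/a10/a11/a13, Hoxb5/b6/b7, Hoxc4/c5/c6 and Hoxa11os were -1.62, -1.09, -1.16 and -0.54, and still called. Hoxa2/a3/a5/a6 fell by 1.29 (adjusted p = 0.0209) and Hoxd8 by 1.35 (adjusted p = 0.0172). The call of Hoxa2/a3/a5/a6 was lost without the third day 0, the first day 6 or the third day 6 Notch1-/- library (0.0808, 0.0564 and 0.0722), and counts did not call it (log2 change 0.10). Hoxd8 lost its call without the third day 0 or the third day 6 library (0.0667 and 0.0676), with a pseudocount of 1 (0.134) and by counts.

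Hoxb2/b3/b4, Hoxc12, Hoxc13 and Cdx1 were not called in Notch1-/-. Cdx1 was read at 1.69, 1.40 and 0.973 CPM at day 0, all below the day 6 libraries, with a log2 change of 1.79 and an adjusted p of 0.0657; without the first WT day 0 library, which enters only through the shared spread, it was 0.0106. Without the second or the third it was 0.0476 and 0.0479, and with only the 2 groups fitted 0.0381. Hoxb2/b3/b4 had a log2 change of 0.37 in FPKM and was called lower by counts (-2.21).

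**Figure D4:**
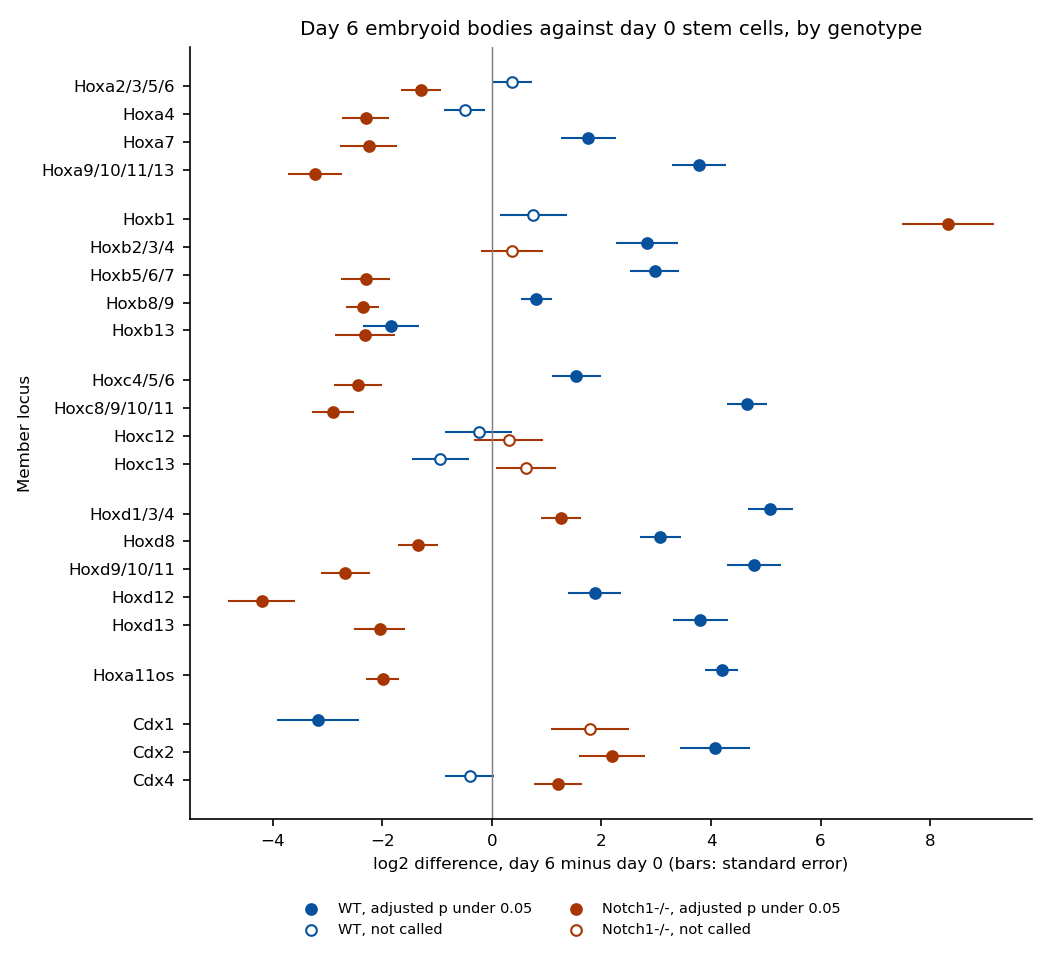
Log2 change from day 0 to day 6 at each locus in WT (blue) and Notch1-/- (brown), with standard errors; filled points passed an adjusted p of 0.05. At 11 loci of the Hox clusters, all called in both genotypes, the blue point is right of 0 and the brown point left of it, whereas Hoxb1 is the farthest to the right in Notch1-/-, at 8.32.

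Whether the 2 genotypes changed differently over time was tested directly, as the difference of the 2 changes. Of the count loci, 7 were lower and 2 higher, against 4.92% and 6.36% of all loci, and 5 FPKM loci were lower, against 6.35%, where 7.21% of all loci were higher. Of the 12 lower loci, Hoxb5/b6/b7, Hoxc4/c5/c6, Hoxd8 and Hoxa11os had values over 1.5 times smaller with a pseudocount of 1 (-3.51, -2.27, -2.21 and -3.25). Among the count loci the largest values were -7.56 for Hoxc8/c9/c10/c11 (SE 0.53, adjusted p = 2.53e-05), -7.46 for Hoxd9/d10/d11 (SE 0.66, adjusted p = 0.000103) and, in the other direction, 7.56 for Hoxb1 (SE 1.00, adjusted p = 0.000646). Among the FPKM loci it was -7.00 for Hoxa9/a10/a11/a13 (SE 0.69, adjusted p = 0.000166). Cdx1 had 4.97 (SE 1.03, adjusted p = 0.00899). Cdx2 and Cdx4 were not called (adjusted p = 0.164 and 0.120), nor were Hoxa2/a3/a5/a6, Hoxa4, Hoxb2/b3/b4, Hoxb13, Hoxc12 and Hoxc13. Without the first Notch1-/- day 0 library Hoxa2/a3/a5/a6 (adjusted p = 0.0443), Hoxa4 (0.0246) and Hoxb2/b3/b4 (0.0183) were called lower. Hoxa4 was also called by DESeq2 (0.0131) and with its size factors (0.0460), Hoxb2/b3/b4 with a pseudocount of 1 (0.0284) and by counts (log2 value -4.19, adjusted p = 0.00217), and Hoxa2/a3/a5/a6 without the second Notch1-/- day 6 library (0.0241).

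Before differentiation, 3 count loci were lower in Notch1-/- than in WT (Hoxb1, Hoxc12 and Hoxc13), against 5.86% of all loci, and no member was called higher by edgeR or by limma. Over all loci, 3.71% were higher by counts, and by FPKM 3.39% were higher and 5.17% lower. DESeq2 called the same 3 and none higher, while at an unadjusted p under 0.05 edgeR gave 5 lower and 2 higher count loci and limma gave 0 FPKM loci. Hoxb1 was read at 0.271, 0.273 and 0.523 CPM in WT (log2 difference -3.05, SE 0.78, adjusted p = 0.0289). Hoxc12 was read at 10.2, 1.36 and 3.11 CPM in WT and 0.605, 1.06 and 0.321 CPM in Notch1-/- (log2 difference -2.88, SE 0.66, adjusted p = 0.0172). Hoxc13 was read at 2.33, 0.537 and 0.962 CPM against 0.387, 0.229 and 0.150 CPM (log2 difference -2.32, SE 0.55, adjusted p = 0.0204). Groups did not overlap at these 3 loci, and none of the 3 was called in FPKM. Lack of overlap was not particular to them, since Cdx1 (below WT) and Hoxd9/d10/d11 (above WT) did not overlap either and were not called. In all, 4 of the 22 loci lay below without overlap and 1 above, and the share over all loci was not counted.

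These day 0 calls depended on single libraries and on the shared spread: with only the 2 groups fitted none of the 3 was called (adjusted p = 0.0570 for Hoxb1, 0.0881 for Hoxc12 and 0.102 for Hoxc13). Without the first WT library all 3 were lost: Hoxb1 (log2 difference -3.22, adjusted p = 0.0549), Hoxc12 (-1.75, 0.0766) and Hoxc13 (-1.55, 0.0880). Hoxb1 was also lost without the third WT library (0.0843) or the second Notch1-/- library (0.117), Hoxc12 without the third Notch1-/- library (0.0625), and Hoxc13 without the second or the third Notch1-/- library (0.0833 and 0.0740). Other day 0 loci were called only when a library was left out. They were Cdx1 without the second or the third WT library (log2 differences -2.65 and -2.67), Hoxd13 without the first Notch1-/- library (1.55) and Hoxd9/d10/d11 without the third Notch1-/- day 6 library (0.97). Hoxb13 had a log2 difference of -1.29 (adjusted p = 0.118); it was called with the replicate number as a block (adjusted p = 0.0418), without the second WT library (0.0437) and without the first Notch1-/- library (0.0286). Hoxa2/a3/a5/a6 was called lower by counts (-1.07) but not by FPKM (-0.54).

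Fibroblast markers, which the feeder layer would bring, varied between the day 0 libraries. The summed level of 14 of 15 listed markers was 1763, 1071 and 3390 CPM in WT and 594, 1691 and 2386 CPM in Notch1-/-, and none of the 14 was called different between the genotypes at day 0. The third Notch1-/- library, with the highest sum of its genotype, also had the highest value at 16 of the 22 loci. How often each library was the highest over all loci was not counted. In WT, the third library had the highest sum and the highest value at 9 loci, as many as the first library, and the second had it at 4. At day 6 the sums were 1012 to 1376 CPM in WT and 88.5 to 137 CPM in Notch1-/-. All 14 markers fell over time in Notch1-/- and 8 fell in WT, against 18.7% and 24.7% of all loci by counts. At day 6, 7 were lower and 1 higher in Notch1-/-, against 14.4% and 13.7% of all loci. None of the markers had a mean at 0 in any group. Fibroblasts express Hox genes, and the part of these markers in the Hox values was not tested.

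Loci in and around the clusters that are not members were counted at day 6 in the same way, where 14.4% of all loci were lower by counts and 15.8% by FPKM. Of 13 tested loci that lie within the cluster spans and are no members, 11 were lower in Notch1-/-, with a median log2 difference of -2.11. Most of these 13 share 53.3% or more of their exon length with another locus. The reads of those loci may therefore be those of the members, and they are not a separate set of evidence. The rest were read by counts. An unnamed Hoxa locus sharing 0% had a log2 difference of -4.62, Hoxd3os1 (28.3%) -5.75 and an unnamed Hoxb locus (32.5%) -1.96, all called. An unnamed Hoxc locus (31.1%) had -1.04 and was not called. Hotair, among the 13, passed the filter for testing only through the WT day 6 libraries. Of 39 tested loci that reach within 200 kb on either side, 12 were lower and 2 higher, with a median of -0.058. Of these flanking loci, Evx2, the homeobox gene beside Hoxd13, was read at 0.629, 0.516 and 0.590 CPM in WT day 6 libraries and had 0 counts in the 3 Notch1-/- day 6 libraries. Hottip, a noncoding RNA beside Hoxa13 known for keeping the posterior Hoxa genes active, was read at 0.844, 0.923 and 0.633 CPM against 0.00900, 0.0312 and 0.00745 CPM (log2 difference -5.55, adjusted p = 0.000421). Evx1, the homeobox gene next to the posterior end of the Hoxa cluster, had FPKM of 7.98, 8.08 and 7.34 in WT and 19.1, 22.0 and 4.65 in Notch1-/-, and was not called (log2 difference 0.68, adjusted p = 0.494).

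**Figure D5:**
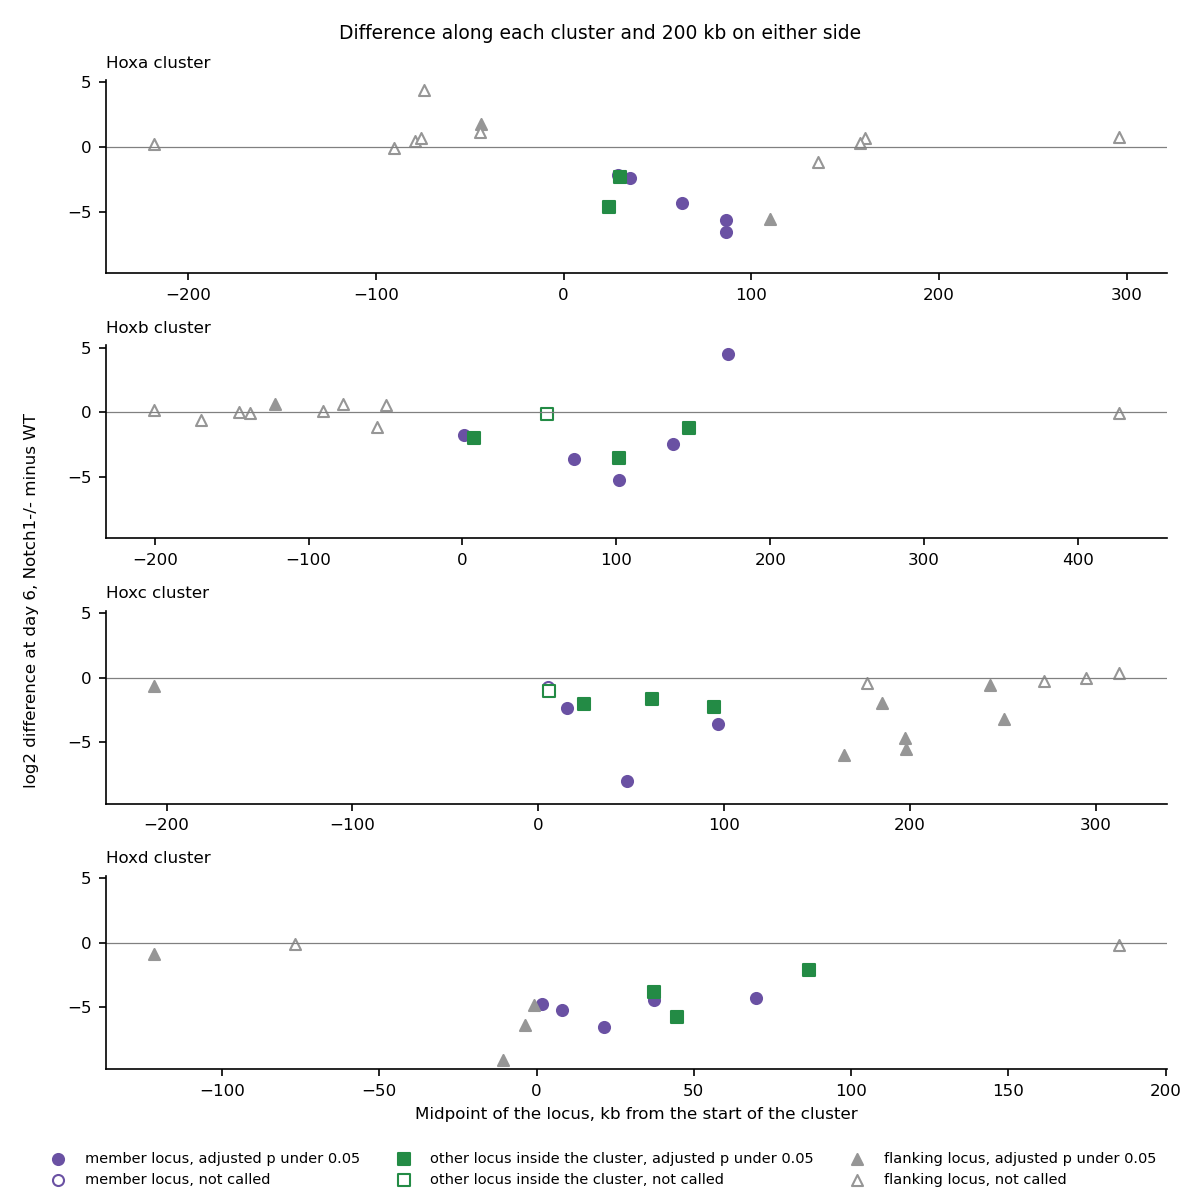
Log2 difference of Notch1-/- against WT at day 6 for every tested locus in and around each cluster, by the distance of its midpoint from the cluster start in kb; circles are member loci, squares other loci inside the cluster, triangles flanking loci, and filled symbols passed an adjusted p of 0.05. Hoxb1 lies at 4.51 while the other called symbols inside the 4 clusters lie below 0, and 12 of the 39 flanking loci, beside Hoxa13, Hoxc4 and Hoxd13 among other places, were called lower.

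Noncoding RNAs of the clusters were a part of this set. All 7 tested loci of a list of Hox cluster noncoding RNAs were lower in Notch1-/- at day 6. Hoxb5os had FPKM of 1.85, 1.31 and 0.739 in WT and 0.0206, 0.0131 and 0.00945 in Notch1-/- (log2 difference -3.53, adjusted p = 0.000139). Hotair, a noncoding RNA transcribed from the Hoxc cluster, had FPKM of 0.360, 0.271 and 0.336 in WT and was listed at 0.00360, 0 and 0 in Notch1-/-. Hotair reached the 0.1 FPKM needed for testing in the WT day 6 libraries alone, so at day 6 it could only come out lower. The count of 7 lower loci was therefore in part fixed by the filter. Haglr, from the Hoxd cluster, had FPKM of 1.08, 0.964 and 0.580 against 0.161, 0.153 and 0.0602 (log2 difference -2.11, adjusted p = 0.000155). These loci overlap Hox transcripts on the other strand for 53.3% or more of their exon length, Hottip and Hoxd3os1 excepted, so their reads may be shared.

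The partners and regulators of Hox genes were described from lists, by how many loci passed the test at day 6. Over all loci tested, 13.7% were higher and 14.4% lower by counts, and 14.1% and 15.8% by FPKM. Of 8 tested Hox cofactor genes, 2 were lower, with a median log2 difference of -0.27; the 2 were Meis1 and Meis2, which encode homeobox partners of HOX proteins. Meis1 was read at 29.7, 26.8 and 24.1 CPM in WT and at 2.13, 1.65 and 1.38 CPM in Notch1-/- (log2 difference -3.96, SE 0.44, adjusted p = 5.48e-05). Meis2 was read at 118, 118 and 111 CPM against 28.8, 27.6 and 20.01 CPM (log2 difference -2.18, SE 0.22, adjusted p = 2.61e-05). Pbx3 (0.64, adjusted p = 0.0737) and Pbx4 (1.16, adjusted p = 0.0694) were not called.

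Of 12 tested signals and factors of the posterior growth zone, 5 were higher, 3 lower and 4 not called, with a median of 0.63 over the 8 read by counts. The 4 with the smallest p, given here, were all higher. Wnt8a, a Wnt ligand of the early posterior embryo, was read at 2.66, 3.87 and 7.13 CPM in WT and at 92.0, 85.1 and 87.6 CPM in Notch1-/- (log2 difference 4.28, SE 0.41, adjusted p = 1.83e-05). Wnt3a, a ligand of the tail bud, was read at 0.182, 0.118 and 0.265 CPM against 3.32, 3.83 and 2.33 CPM (log2 difference 4.06, adjusted p = 0.000132). Sp5, a Wnt target, was higher by 2.01 and Fgf4 by 1.5.

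Of 7 tested genes of the trunk-to-tail timing list, 3 were higher and 1 lower (median 0.59). Nr6a1, a nuclear receptor of trunk identity, was read at 101, 95.9 and 86.4 CPM in WT and at 287, 244 and 294 CPM in Notch1-/- (log2 difference 1.54, adjusted p = 1.31e-05). Gdf11, a signal that starts posterior Hox expression in the tail, had FPKM of 1.68, 1.97 and 2.00 against 0.820, 0.768 and 0.709 (log2 difference -1.19, adjusted p = 0.00789).

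Of 17 retinoic acid pathway genes 2 were higher and 4 lower (median -0.18); among the lower was Rarb, a receptor that is itself induced by retinoic acid (log2 difference -1.53, adjusted p = 0.00171). Of 19 Polycomb genes 2 were higher and 3 lower (median 0.12): Cbx8 was lower (log2 difference -2.37, adjusted p = 2.79e-05), as was Bmi1 (-1.05), while Cbx7 was higher by 0.76. Of 7 trithorax and demethylase genes 3 were higher (median -0.014 over 3), of 3 ParaHox genes 1 higher (median 1.63), of 10 anterior neural genes 2 higher and 1 lower (median 0.91), and of 10 hindbrain regulators 3 higher and 3 lower (median -1.11). Of 30 named flanking genes, 5 were higher and 6 lower (median 0.014). The medians here are over the genes read by counts, beside 0.012 over all loci. With 13.7% of all loci higher and 14.4% lower by counts, the called numbers of these lists are not read as a result about their pathways.

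Markers of other tissues were counted at day 6 against the same background, 13.7% higher and 14.4% lower of all loci by counts. These lists were chosen with earlier results of these data known, so the counts are a description and not an independent test. Of 11 tested markers of allantois and hindlimb-type mesoderm 10 were lower in Notch1-/- (median -3.43), and their summed level was 797 to 1411 CPM in WT and 102 to 343 CPM in Notch1-/-. Tbx4 and Pitx1, which mark hindlimb-type mesoderm, were lower by 6.38 and 8.44 (log2 differences of -6.38 and -8.44). Of 8 visceral endoderm markers 6 were lower (median -3.95), with sums of 192 to 265 CPM against 11.7 to 18.99 CPM. Of 8 stem cell markers 3 were higher (median 0.63), with sums of 427 to 592 CPM against 661 to 1057 CPM. Of 9 trophoblast markers, relevant to Cdx2, 1 was higher and 2 lower (median -0.34); the sums were 137 to 153 CPM in WT and 87.6 to 130 CPM in Notch1-/-, and of the list Prl3d1 and Tpbpa had means under 0.1 CPM in both. Medians of these tissue lists are over the tested markers read by counts. The sums cover the markers read by counts: 9 for allantois and hindlimb-type mesoderm, 7 for visceral endoderm, 6 for stem cells and 9 for trophoblast.

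Of 5 intestinal markers, also relevant to Cdx2, 2 were lower (median -1.16), and Fabp2 and Isx had means under 0.1 CPM in all groups. Of 8 neural and hindbrain markers 1 was higher and 1 lower (median 0.70), of 7 presomitic and somitic markers 3 were higher and 1 lower (median -0.073), and of 5 cardiac markers 2 were higher and 2 lower (median -0.67). The part of the tissue makeup in the Hox and Cdx values was not tested.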

How the data were processed

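Poly(A) RNA of the 12 libraries was read from both fragment ends, 100 bases each, per the labels. Tools named by the submitters' processing notes are DESeq, HTSeq 0.5.4p3, Cufflinks 2.1.1 and TopHat2 2.0.8, on mm9; how they were combined, and the strand setting, are not stated in any label. Values as the authors deposited them are whole counts for each merged locus and FPKM (per length and library size) for the same 40039 loci, with the transcript models behind both. The 42 genes and the companion lists were chosen with earlier results of these data known.

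The deposited files give no symbols. Genes were linked to loci by matching the intron lengths of annotated GRCm38 genes on the same chromosome, and no coordinate was converted. Of the 112 introns annotated for the members, 81 were matched, and 24 members rest on 1 intron. Of 17677 genes with at least 3 matched introns, 98.976% lay at their neighbour's offset, and of 28385 genes looked up on another chromosome 0 were linked. Names therefore rest on this inference.

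Counts were tested with edgeR 4.0.16 (R 4.3.3; quasi-likelihood test, TMM, default filter, 23991 loci), all 12 libraries in 1 fit with a mean per group. FPKM was tested with limma 3.58.1 (trend) on log2(FPKM + 0.1), for 20055 loci with at least 0.1 in at least 3 libraries; such fold changes understate the change of low loci. P-values were adjusted by Benjamini-Hochberg over all loci tested, with a threshold of 0.05. The standard error of an edgeR value is its size over the root of its F. Both tests were tested on simulated data. The TMM scaling factors lay between 0.908 and 1.14. Loci with a few counts per library are the least precise. Alternatives were other scalings, DESeq2 1.42.0, no filter, a pseudocount of 1, the 2 groups alone, a replicate block and leaving out each library.

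By rule, all 42 members are named; values in every library are given where a group mean reaches 1 or a comparison calls the locus, and up to 4 genes per list with the smallest p at day 6 may be named. Evx1 was named after its values were seen. The labels share replicate numbers between groups without saying what a number marks. Deviations of same-numbered libraries correlated at 0.398, 0.275 and 0.165 between the day 0 genotypes, and other pairs of groups did not all exceed 0.1. Differently numbered libraries were not compared, so these values do not settle whether the numbers mark pairs. The main fits took all libraries as unpaired, and only the replicate block used the numbers. Promoter sequences are RefSeq's on GRCm38.p6. Some genes are not reported here.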

Additional observations from a re-analysis of the deposited data

Results flagged for a closer look

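Results are listed here because the change from day 0 to day 6 differed between WT and Notch1-/- in a test of the difference itself, on the log2 scale and at an adjusted p under 0.05. In 12 loci the Notch1-/- change was below the WT change. The differences were -7.56 for Hoxc8/c9/c10/c11, -7.46 for Hoxd9/d10/d11, -7.00 for Hoxa9/a10/a11/a13, -6.18 for Hoxa11os, -6.08 for Hoxd12 and -5.86 for Hoxd13. They were -5.27 for Hoxb5/b6/b7, -4.42 for Hoxd8, -4.01 for Hoxa7, -3.99 for Hoxc4/c5/c6, -3.82 for Hoxd1/d3/d4 and -3.17 for Hoxb8/b9. In 2 loci it was above, by 4.97 for Cdx1 and 7.56 for Hoxb1. These 14 calls held without any single library. No separate test of single outlying libraries was run. DESeq2 gave Cdx1 no adjusted p in any comparison, with a log2 value of 4.87 for the difference of changes. The WT day 0 libraries of Cdx1 spread from 2.13 to 14.9 CPM, and the reason for the missing adjusted p was not tested.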

How the results depend on the processing

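At day 6, the 7 FPKM loci were lower in Notch1-/- under every alternative run, and 9 to 11 count loci were. Numbers of called count loci that moved by over 1.5 times did so as follows. DESeq2 gave 1 locus lower over time in WT and 1 higher for the difference of changes, because it gave Cdx1 no adjusted p. With only the 2 groups fitted, 0 loci were lower at day 0. Leaving out single libraries gave 1 to 3 loci lower over time in WT, 1 to 5 higher over time in Notch1-/-, 0 to 5 lower and 0 to 1 higher at day 0, and 1 to 3 higher at day 6. The replicate block left each count within 1.5 times (4 lower at day 0, with Hoxb13, -1.29, added) and changed no other call. Over all named values, other settings kept 347 calls and lost 10, and leaving out libraries kept 814 and lost 50.

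Directions reversed only for values that were not called. With a pseudocount of 1 the day 0 differences of Hoxb2/b3/b4 and Hoxd8 were 0.034 and 0.0056. Leaving out single libraries, the changes over time ranged from -0.68 to 0.89 for Hoxc12 in WT, and in Notch1-/- from -0.17 to 0.99 for Hoxb2/b3/b4 and from -0.045 to 0.81 for Hoxc12. Day 0 differences ranged from -0.039 to 0.94 for Hoxa9/a10/a11/a13, -0.41 to 0.54 for Hoxb2/b3/b4, -0.34 to 0.45 for Hoxb5/b6/b7, -0.043 to 0.67 for Hoxc4/c5/c6, -0.27 to 0.27 for Hoxd8 and -0.25 to 0.39 for Cdx4. The differences of changes ranged from -1.10 to 0.11 for Hoxb13 and from -0.58 to 1.05 for Hoxc12. The cause was not tested. Low loci such as Hoxd12 and Cdx4 rest on few counts, and merged loci hide differences between their genes.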
